A study of Mus musculus with 82 samples.

Results

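The regions described here are Adnp peaks that lay in long non-coding RNA (lncRNA) genes and away from protein-coding genes. A peak was taken if it overlapped a gene of type lncRNA on GRCm38 by at least 1 bp and lay 1 kb or more from every protein-coding gene, and it is called a lncRNA-only peak below. This held for 1071 of the 14903 Adnp peaks on chromosomes 1 to 19 (7.19%, 95% Wilson interval 6.78% to 7.61%), out of 15026 in the whole list, and placed them in 827 of 12324 lncRNA genes.

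The study profiled mouse embryonic stem (ES) cells, which can form all tissues of the embryo, on a hybrid 129-C57BL/6 background in 2i medium with LIF, a mixture that holds the cells in their naive state. The Adnp peaks came from 3 replicates of untreated wild-type cells with the Adnp FlagAvi allele, a tag on the protein itself that is captured on streptavidin beads. A second list, of 2047 HP1γ peaks chosen for lacking the Adnp motif, was tied to untreated cells with the Cbx3 FlagAvi allele, 3 replicates without and 3 with the Adnp KO. Whether the tagged cells are 1 clone is not stated in the sources used here. Replicates were pooled by the authors into 1 list each, so replicate error cannot be given and no test between groups could be made. The intervals below cover counting error only, neighbouring peaks are not independent, and the depth behind a peak is unknown.

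Adnp is a zinc finger and homeodomain protein. It binds DNA at specific sequences and, with the remodeller Chd4 and HP1 proteins, forms the ChAHP complex, which is known in ES cells for keeping genes of differentiated lineages silent. HP1γ, encoded by Cbx3, reads methylated lysine 9 of histone H3 through its chromodomain and can also be brought to DNA by partners such as Adnp. lncRNA genes give transcripts without a long reading frame. Some of these act in the nucleus, some carry small RNAs in their introns, and most have no known role.

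Transcript starts of lncRNA genes are shown first, since they are the stretches under lncRNA-only peaks whose letters could be read. RefSeq start windows on GRCm38.p6, from 250 bases before to 50 bases after a start, were matched by gene ID for 642 of the 827 lncRNA genes. A lncRNA-only peak overlapped 23 windows of 22 genes. Of these, 15 lay at the outermost start of their gene and 8 at a transcript start inside it. Below, a start is that of the window shown. Among all lncRNA start windows, 67 of 11311 lay under an Adnp peak of any kind (0.592%). The 22 peaks had scores from 7.76 to 213. Of these genes, 6 are printed below because they show the 3 sorts of start that were found: starts with the word CGCCCNCT, starts with the word CCCTCTTCTGG, and a well studied lncRNA with neither. CGCCCNCT (N is any base) stands for the core of the motif known for Adnp, and both words were searched on both strands. CCCTCTTCTGG was chosen after the windows had been read. Its first 6 letters fit the last 6 of CGCCCNCT, so starts with CCCTCTTCTGG alone still hold most of that core. Whether they hold a longer form of the Adnp motif was not tested. In Gm34462 the matches overlap. The Gm31735 and Gm15411 windows lie 10.8 kb and 14.9 kb inside the gene from its outermost start, and the other 4 printed windows are at the outermost start. Capitals mark the matches.
Snhg11, chr2:158375463-158375762, plus strand: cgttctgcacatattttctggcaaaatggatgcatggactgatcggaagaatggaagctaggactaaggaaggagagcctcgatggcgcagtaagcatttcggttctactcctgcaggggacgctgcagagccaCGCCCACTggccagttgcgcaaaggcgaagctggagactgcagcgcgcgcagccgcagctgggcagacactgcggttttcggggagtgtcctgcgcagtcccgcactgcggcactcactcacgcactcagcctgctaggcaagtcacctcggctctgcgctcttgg
Zfp783, chr6:47942925-47943224, plus strand: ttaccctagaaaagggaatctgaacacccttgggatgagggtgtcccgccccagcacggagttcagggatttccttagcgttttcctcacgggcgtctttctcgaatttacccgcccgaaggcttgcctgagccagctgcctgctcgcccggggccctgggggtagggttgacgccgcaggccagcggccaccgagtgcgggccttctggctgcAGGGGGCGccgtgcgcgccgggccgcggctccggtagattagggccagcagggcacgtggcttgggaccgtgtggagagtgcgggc
Gm34462, chr3:64230897-64231196, plus strand: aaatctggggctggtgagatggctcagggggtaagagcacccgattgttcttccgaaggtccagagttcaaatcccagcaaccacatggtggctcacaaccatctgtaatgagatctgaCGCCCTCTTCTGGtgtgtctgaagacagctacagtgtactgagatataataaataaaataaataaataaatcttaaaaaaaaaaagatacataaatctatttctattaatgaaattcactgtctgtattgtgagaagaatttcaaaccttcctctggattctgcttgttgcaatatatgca
Gm31735, chr7:29972717-29973016, minus strand: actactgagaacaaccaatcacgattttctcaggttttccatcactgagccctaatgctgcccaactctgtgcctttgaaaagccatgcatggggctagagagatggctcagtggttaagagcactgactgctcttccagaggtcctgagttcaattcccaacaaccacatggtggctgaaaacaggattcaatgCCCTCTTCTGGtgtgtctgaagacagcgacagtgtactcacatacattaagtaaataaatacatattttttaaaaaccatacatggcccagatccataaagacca
Gm15411, chr5:149000917-149001216, minus strand: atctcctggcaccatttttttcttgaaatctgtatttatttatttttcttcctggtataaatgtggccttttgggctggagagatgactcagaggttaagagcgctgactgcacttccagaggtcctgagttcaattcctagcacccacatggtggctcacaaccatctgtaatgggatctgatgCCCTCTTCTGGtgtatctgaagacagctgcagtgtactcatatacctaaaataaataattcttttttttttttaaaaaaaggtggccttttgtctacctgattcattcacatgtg
Miat, chr5:112228899-112229198, minus strand: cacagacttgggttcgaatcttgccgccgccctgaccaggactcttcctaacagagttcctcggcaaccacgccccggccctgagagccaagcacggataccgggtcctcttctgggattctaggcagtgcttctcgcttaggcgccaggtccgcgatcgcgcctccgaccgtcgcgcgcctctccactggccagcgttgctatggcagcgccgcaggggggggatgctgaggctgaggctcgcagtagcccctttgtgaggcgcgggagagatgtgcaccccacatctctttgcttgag

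The Snhg11 start carried the strongest peak of the 22, with a score of 213. Snhg11 hosts a small nucleolar RNA, and its peak at chr2:158375336-158375939 covered all 300 bases of the window, with its centre 76 bp before the start. Its CGCCCNCT match began 116 bp before the start. Zfp783, named as a zinc finger gene but typed as lncRNA in the gene table, had a peak with a score of 39.0 that also covered the whole window, and a match 36 bp before the start on the other strand. In Gm34462 the match lay 131 bp before the start under a peak with a score of 20.1.

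CGCCCNCT was found in 3 of the 23 windows (13.0%, 4.54% to 32.1%). The share was 12.4% of all 31395 start windows of the same length and 5.07% of the 11311 lncRNA windows, so the interval for the 23 covers both. Windows of all gene types under an Adnp peak of any kind held it in 92 of 319 cases (28.8%, 24.1% to 34%), against the 12.4% of all windows. For lncRNA windows under such a peak it was 13 of 67 (19.4%, 11.7% to 30.4%), against the 5.07%. Both sets include the 23 windows, whose interval also covers 28.8% and 19.4%.

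CCCTCTTCTGG was present in 5 of the 23 windows (21.7%), those of Gm31735, Gm34462, Gm45938, Gm15411 and Gm38137. Since it was picked from these windows, that share is a description only. In all start windows it was present in 121 of 31395 cases (0.385%), and in lncRNA windows in 0.813%. With the 23 windows left out, an Adnp peak of another class lay over 14 of the 116 windows with the word (12.1%, 7.33% to 19.2%) and over 282 of the 31256 windows without it (0.902%, 0.803% to 1.01%). No repeat annotation was used, so whether these windows lie in copies of a repeat was not tested. The scores of the 5 peaks were modest, at 24.6, 20.1, 15.9, 12.2 and 9.79 in the order of the genes above.

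Miat, a lncRNA known from heart and retina, had a peak with a score of 10.8 whose centre lay 199 bp before its start. The Miat window held neither word, and the part of the peak outside the window was not read. Gm33185 had a peak with a score of 9.36 over its start, 19.7 kb from the nearest protein-coding gene, which was Adnp itself. Peaks over starts with higher scores were those of Gm40716 (91.4), Gm13025 (70.8) and Gm34891 (45.0), and the windows of all 3 held neither word.

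Beside all Adnp peaks, the lncRNA-only peaks were neither strong nor weak. Their median score was 21.2 (95% interval of the median 20.2 to 22.2, quartiles 13.9 and 34.4, range 4.59 to 259), and that of the other 13832 peaks was 21.2 (quartiles 13.9 and 33.6). The score is the authors' and its kind is not stated, so it serves only to rank peaks within the list. Of the 1071 peaks, 106 (9.9%, 8.25% to 11.8%) were among the highest 10% of scores, a share near the background of 10.0%. Their median width was 400 bp, against 396 bp for the others.

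Per length of genome, Adnp peaks were denser in this territory than outside lncRNA and protein-coding genes. They were sparser than in and around protein-coding genes. lncRNA genes 1 kb or more from protein-coding genes covered 168 Mb and held 6.38 peaks per Mb (exact Poisson interval 6.0 to 6.77). The 1220 Mb outside both gene types held 4.77 per Mb (4.65 to 4.89). Protein-coding genes with 1 kb around them covered 1016 Mb and held 7.89 per Mb (7.72 to 8.07). Chromosome 11 held more lncRNA-only peaks than any other chromosome, 114 (10.6%), and also 9.16% of all Adnp peaks. Their share of a chromosome's Adnp peaks ran from 5.14% (3.91% to 6.73%) on chromosome 7 to 11.6% (9.12% to 14.8%) on chromosome 12, with chromosome 13 next at 11.2% (8.69% to 14.3%).

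Peaks were spread thinly over lncRNA genes. A single lncRNA-only peak was held by 645 of the 827 genes (78.0%), 122 held 2, 41 held 3, 6 held 4, 9 held 5 and 4 held 7. The 60 genes with 3 or more held 217 of the 1071 peaks (20.3%). Overlapping genes were counted once each, and 37 peaks lay in more than 1 lncRNA gene. Genes with a peak were longer than those without, with medians of 16.1 kb (quartiles 8.65 and 31.4 kb) and 7.96 kb (3.6 and 18.0 kb). The share of genes with a lncRNA-only peak was 1.69% (1.29% to 2.21%), 4.7% (4.01% to 5.51%), 8.8% (7.85% to 9.85%) and 11.7% (10.6% to 12.8%) from the shortest to the longest of 4 length groups of about 3081 genes each.

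**Figure D1:**
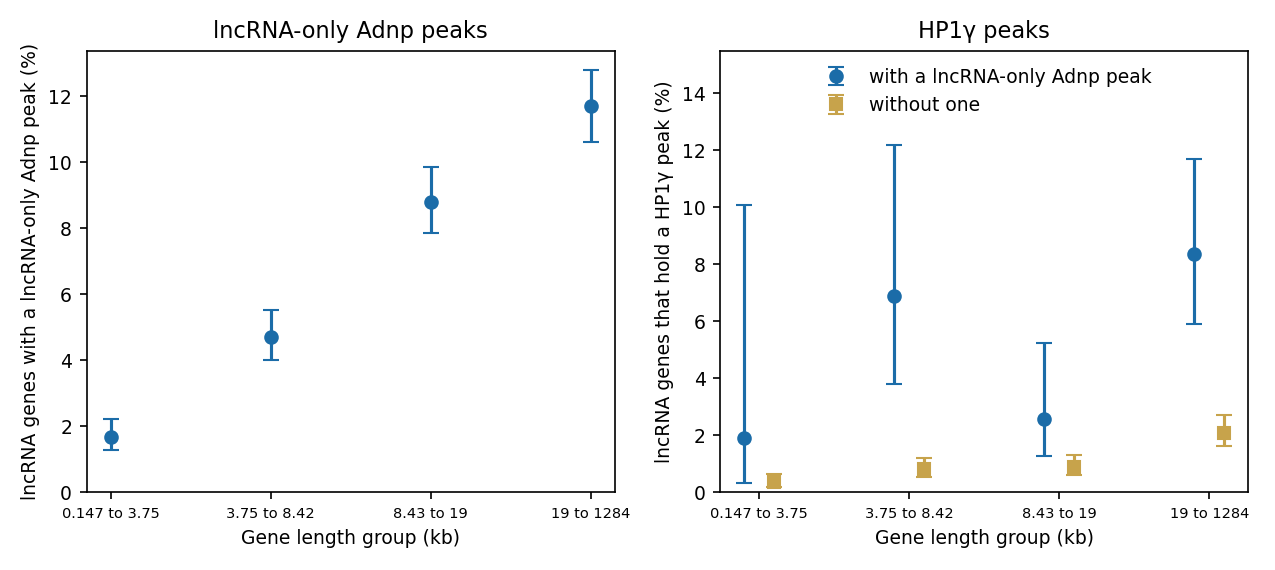
Left, share of lncRNA genes with a lncRNA-only Adnp peak (%) in 4 groups of gene length (kb); right, share of lncRNA genes with (circles) and without (squares) such a peak that hold a HP1γ peak (%). Bars are 95% Wilson intervals; the left share rises from 1.69% to 11.7%, and on the right the circles lie above the squares in all 4 groups, with overlapping intervals in the first and the third.

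Each of the 4 genes with 7 peaks spread them differently. Gm31724 on chromosome 11 (114517389 to 114611686, minus strand) is 94.3 kb long. From its lower-coordinate end, its peaks had scores of 254, 29.0, 24.2, 24.7, 28.1, 12.1 and 31.5. The first of these, at chr11:114564783-114565348, lay at 49.4% of the gene's length and had a score far above the other 6, of which 4 lay within 13.2 kb of it in 1 run. The nearest protein-coding gene for all 7 was Rpl38, which encodes a ribosomal protein, 59.4 to 102 kb away on its start side.

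Gm31718 on chromosome 8 (126804707 to 126908370, minus strand) is 104 kb long and held peaks with scores of 157, 7.1, 21.1, 10.6, 85.4, 42.7 and 23.2. The 7 peaks were spread over 77.4 kb, with the strongest first and 3 of 21.1 or less next to it. The peak with a score of 157 lay at 91.3% of the gene, 9.06 kb from its far end, and the one with 85.4 was 1254 bp wide. Tomm20, a receptor for protein import into mitochondria, was nearest to all 7, at 39.8 to 117 kb.

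Gm31829 on chromosome 12 (105056629 to 105102991, minus strand) is 46.4 kb long, with scores of 73.9, 22.2, 32.7, 24.1, 17.0, 36.5 and 8.71. It was the only 1 of the 4 that also held HP1γ peaks, 2 in all, lying on the Adnp peaks with scores of 73.9 and 17.0. Glrx5, a mitochondrial glutaredoxin of iron-sulfur cluster assembly, was nearest to 6 of its peaks and Tcl1b2 to the other.

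Gm12031 on chromosome 11 (20145397 to 20192842, minus strand) is 47.4 kb long and held weak peaks, with scores of 9.21, 35.6, 8.34, 13.8, 7.0, 7.13 and 12.0. Of these 7, 6 were below the median score of lncRNA-only peaks. Its neighbours were Actr2, a subunit of the actin-branching Arp2/3 complex, and Rab1a, a GTPase of transport from the endoplasmic reticulum.

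Among the 9 genes with 5 peaks, Gm30881 on chromosome 16 was the most compact. All 5 of its peaks, with scores of 30.1, 30.5, 14.4, 22.3 and 39.3, lay within 3.73 kb, 4.48 to 7.84 kb from the start side of Morc3, a nuclear ATPase. Gm51805 on chromosome 10 held its 5 within 11.9 kb, with scores of 46.0, 17.4, 9.95, 13.9 and 28.8. They lay 1.1 to 12.5 kb from the start side of Tet1, the dioxygenase that oxidises 5-methylcytosine and is highly expressed in ES cells. Gm26885 on chromosome 17 held peaks with scores of 17.6, 60.1, 15.8, 71.4 and 14.6, at 5.92 to 40.1 kb from the start side of the kinase gene Pim1.

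The other genes with 5 peaks lay farther from protein-coding genes or were weaker. Gm31615 on chromosome 17, 152 kb long, had scores of 55.0, 40.2, 23.3, 130.0 and 17.4, with the forkhead factor gene Foxn2 and Gm4832 as neighbours, 87.4 to 143 kb away. Gm46607, also on chromosome 17, had scores of 13.6, 85.1, 31.9, 33.3 and 31.3. C330002G04Rik on chromosome 19, between the cation channel gene Trpm3 and the Krüppel-like factor gene Klf9, had a highest score of 62.0 and a lowest of 14.5. Gm31128, Gm30363 and Gm30296 had highest scores of 34.7, 30.3 and 28.1. Gm30363 lies between Adk, which encodes adenosine kinase, and the histone acetyltransferase gene Kat6b, and 4 of its 5 peaks were nearer to Kat6b, at 18.6 to 24.5 kb.

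**Figure D2:**
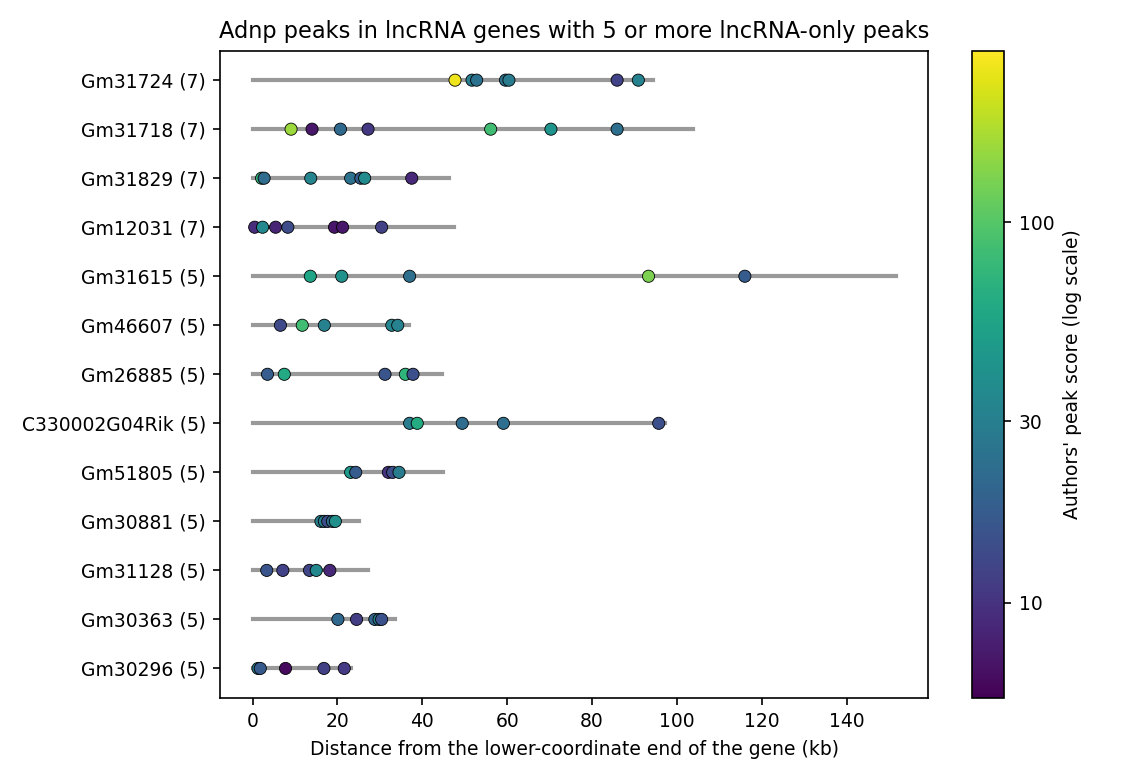
Position of each peak centre (kb from the lower-coordinate end) in the 13 lncRNA genes with 5 or 7 lncRNA-only peaks, with grey lines to scale for the genes and colour for the authors' score (log scale). Gm31724 and Gm31718 spread 7 peaks over 43.7 and 77.4 kb, whereas the 5 peaks of Gm30881 lie within 3.73 kb.

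Among the genes with 4 or more peaks, the short ones held most per length. Gm11715 on chromosome 11 is 9.72 kb long and held 4 peaks (41.2 per 100 kb) with scores of 20.5, 9.36, 20.2 and 29.1, 3.79 to 8.11 kb from Nol11, which acts in ribosomal RNA synthesis. AW549542 on chromosome 5 is 10.2 kb long and held 4 (39.1 per 100 kb) with scores of 133, 9.62, 71.2 and 14 in a stretch of 4.21 kb. Its nearest protein-coding gene was Tbx3, a T-box factor gene active in naive ES cells, 94.8 to 98.5 kb away. Gm16196 had 4 peaks with scores of 19 to 34.4 between Stk38 and the splicing factor gene Srsf3, and Gm11515 had 4 with scores of 18.1 to 39.0 beside Tac4. Gm31340 on chromosome 15 had scores of 5.97, 48.5, 28.4 and 231 over a length of 153 kb. Gm30799 had scores of 13.3 to 28.9. Of the genes with 3 peaks, those with the highest top scores were Gm41496 (227), Gm30215 (164), Gm51545 (133), Gm33444 (110), Gm45950 (87.8) and Gm31175 (86.3). In each of these 6 the second-highest score was 58.0 or less.

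The 15 highest scores fell both in genes with many peaks and in genes with 1. First was a peak with a score of 259 at chr4:117501566-117502420 in Gm12827, a gene of 13.6 kb with no other lncRNA-only peak, 4.51 kb from the ubiquitin ligase gene Rnf220. It also overlapped a HP1γ peak, the only 1 of the 15 highest that did. After Gm31724 (254), Gm31340 (231) and Gm41496 (227) came Gm35419 (217), Snhg11 (213), Gm37125 (182), Gm13790 (173) and Gm30215 (164). The last of the 15 were Gm36548 (157), near the cell cycle kinase gene Cdk6, then Gm31718 (157), Gm29985 (148), Gm34712 (147), Gm46666 (136) and Gm52797 (135). Of the 15 peaks, 9 were alone in their gene, as were 645 of all 1109 pairs of peak and gene. Snhg11 was the only 1 of the 15 over a gene start. The peak in Gm52797 lay 1.12 kb from Fry, near the limit of 1 kb that chose the regions.

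At that limit, the nearest peaks inside were 1032 bp from Farsa (in 1700122E12Rik, score 24.0), 1069 bp from H2-T24 (in A930015D03Rik, 9.79) and 1080 bp from Exd1 (in Gm33412, 11.6). Just outside were peaks 967 bp from Kif3c (in I920046F24Rik, 21.9), 932 bp from Incenp (in Gm50340, 41.0) and 931 bp from Ogfod2 (in Gm16001, 19.3).

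Along their genes the peaks were spread evenly at the scale of 5 equal parts. Strand was known for 870 of the 1109 pairs of peak and gene. Divided into 5 equal parts from the start, the genes held 19.7%, 19.1%, 20.2%, 19.9% and 21.1% of these pairs, and every interval covered 20%. Peak centres beyond an end of the gene were counted in the first or last part. Of the 1071 peaks, 1031 had their centre inside a lncRNA gene. The median position was 50.2% of the length. Within 1 kb of the start lay 67 pairs (7.7%, 6.11% to 9.66%), and within 1 kb of the other end lay 99 (11.4%, 9.44% to 13.7%), with intervals that overlap slightly.

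**Figure D3:**
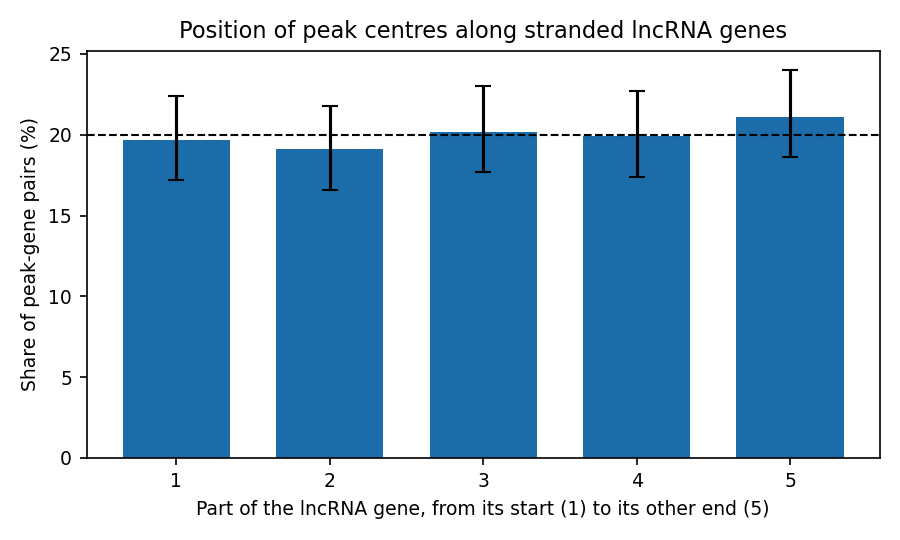
Share of the 870 stranded pairs of peak and lncRNA gene (%) by equal part of the gene from its start to its other end, with 95% Wilson intervals and a dashed line at 20%. The bars run from 19.1% to 21.1% and all intervals cross the line. Peak centres beyond an end of the gene are counted in the first or last part.

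Close to either end there was a moderate surplus over the length available. Of the 1071 peaks, 211 (19.7%, 17.4% to 22.2%) lay within 1 kb of an end of their gene. This counts from the nearest edge of a peak. Counted from the centre, for peaks whose centre lay inside a lncRNA gene, it was 152 of 1031 (14.7%, 12.7% to 17.0%), and such stretches made up 10.1% of the lncRNA territory that could hold a peak. The median distance to the nearest end was 3.72 kb (quartiles 1.31 and 8.81 kb).

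Most of the peaks stood alone. With peaks within 10 kb joined, the 1071 formed 865 regions, of which 714 held 1 peak and 151 held 2 to 5. The 6 regions with 5 peaks lay in Gm31724, Gm51805, Gm30881, Gm31128, Gm30363 and Gm30296. Another Adnp peak of any kind lay within 10 kb of 506 lncRNA-only peaks (47.2%, 44.3% to 50.2%), against 44.4% (43.6% to 45.3%) of the other Adnp peaks.

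Nearest protein-coding genes were farther away than for peaks outside both gene types. How far lncRNA genes themselves lie from protein-coding genes was not measured, so whether the difference follows from their placement was not tested. The median distance was 19.7 kb (quartiles 7.93 and 48.3 kb), against 11.9 kb (4.78 and 29.3 kb) for the 5817 Adnp peaks outside both gene types that also lay 1 kb or more from protein-coding genes. Distances of 1 to 5 kb were found for 13.8% (11.9% to 16.0%) of lncRNA-only peaks and 26.0% (24.9% to 27.1%) of the peaks outside. Distances of 50 to 100 kb were found for 14.7% (12.7% to 16.9%) and 7.7% (7.04% to 8.41%). The farthest peak, with a score of 5.48, lay in 1190028D05Rik on chromosome 8, 1151 kb from Aga.

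**Figure D4:**
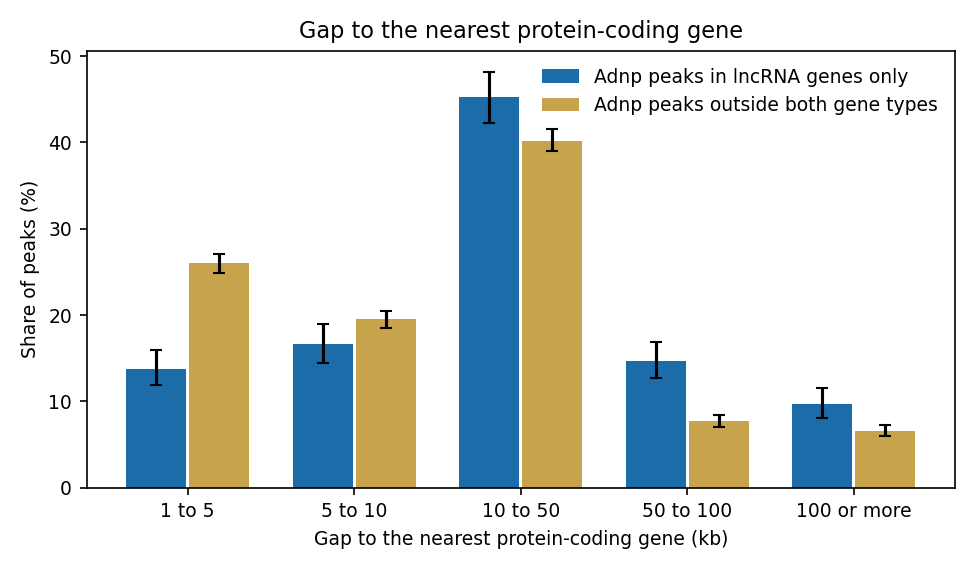
Share of peaks (%) by distance to the nearest protein-coding gene (kb) for the 1071 lncRNA-only Adnp peaks and the 5817 Adnp peaks outside both gene types, with 95% Wilson intervals. The lncRNA-only bars are lower at 1 to 5 kb (13.8% against 26.0%) and higher at 50 to 100 kb (14.7% against 7.7%).

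Where the neighbour's strand was known, 523 of 851 lncRNA-only peaks (61.5%, 58.1% to 64.7%) lay on its start side. For peaks outside both gene types it was 59.1% (57.6% to 60.5%), so the intervals overlap. Within 10 kb of the neighbour the share was 168 of 256 (65.6%, 59.6% to 71.2%). It was not taken at that distance for peaks outside both gene types, so it has no background here.

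The 1071 peaks had 784 different nearest protein-coding genes, and 604 of these were nearest to 1 peak each. Those nearest to most peaks were 1600014C23Rik, Tomm20 and Rpl38 with 7, Glrx5 and Tbx3 with 6, and Tet1, Nol11, Morc3, Bicc1 and Pim1 with 5. For Tomm20, Rpl38, Glrx5, Tet1 and Morc3 all of these peaks lay in 1 lncRNA gene. For Tbx3 they lay in AW549542, Gm31190 and Tbx3os1, 56.0 to 377 kb away, with scores of 9.62 to 133. For Bicc1, which encodes an RNA-binding protein, they lay in 4930533K18Rik and C730027H18Rik, 5.71 to 47.6 kb away. Those of 1600014C23Rik lay in Gm46607, F630040K05Rik and Gm35692.

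HP1γ peaks of the second list seldom lay on the lncRNA-only peaks. Of the 1071, 20 overlapped one (1.87%, 1.21% to 2.87%), and the background over all Adnp peaks was 1.97%. A HP1γ centre lay within 10 kb of 6.72% (5.37% to 8.38%) of their centres, against 6.01% over all Adnp peaks. The list was made without the Adnp motif, so it leaves out HP1γ peaks at the motif. The 20 had a median score of 18.4 (quartiles 11.5 and 37.6) and lay in 18 lncRNA genes. The highest were in Gm12827 (259), Gm16287 (131), Gm31829 (73.9), Gm40113 (62.9) and Gm10069 (54.3), and the lowest in Gm42266 (6.86).

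Seen by gene, HP1γ peaks were more frequent in lncRNA genes that held a lncRNA-only Adnp peak. Of the 827 such genes, 48 held a HP1γ peak (5.8%, 4.41% to 7.61%), and the background over all 12324 lncRNA genes was 1.34%. Since genes with an Adnp peak are longer, the shares were also taken within the 4 length groups. In the second they were 6.9% (3.79% to 12.2%) with and 0.817% without a lncRNA-only peak, in the third 2.58% (1.26% to 5.23%) and 0.89% (0.603% to 1.31%), and in the longest 8.36% (5.92% to 11.7%) and 2.09% (1.62% to 2.7%). In the third group the intervals overlap. In the shortest group the share with a peak rested on 1 of 52 genes. The genes without a lncRNA-only peak include those that lie on or beside protein-coding genes. Per length, genes with a lncRNA-only peak held 2.84 HP1γ peaks per Mb (2.2 to 3.6) and the others 0.703 (0.589 to 0.832).

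A gene could hold both kinds of peak without an overlap between them. In 31 of the 48 genes no lncRNA-only peak overlapped the gene's HP1γ peaks. Over all Adnp peaks only 1.97% overlapped a HP1γ peak, so a lack of overlap is usual and not a trait of these genes. The HP1γ list leaves out peaks at the Adnp motif, and whether this bears on the count of 31 was not tested. With HP1γ peaks on any Adnp peak left out, 34 of 827 genes (4.11%, 2.96% to 5.69%) held one, against 110 of the other genes (0.957%, 0.794% to 1.15%). These shares were not taken within length groups, and genes with a lncRNA-only peak are longer.

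Gm36897 on chromosome 6, 7.73 kb long, held most HP1γ peaks, 4, all in its upper-coordinate part. Its single Adnp peak, with a score of 8.77, lay 1.76 kb from the nearest of them. With 3 HP1γ peaks each came 4932412D23Rik, A630034I12Rik, Gm28722 and Gm39283. In 4932412D23Rik, 150 kb long and 93.0 kb from the zinc finger gene Zbtb20, the 3 lay close together between Adnp peaks with scores of 67.2 and 8.76. In A630034I12Rik, near the cyclin gene Ccne2, 1 HP1γ peak (chr4:11181868-11184337) covered the whole Adnp peak, which had a score of 11.9. In Gm39283 the Adnp peak, with a score of 11.4, also lay on a HP1γ peak. In Gm28722 the HP1γ peaks were 16.9 kb or more from the Adnp peak, which had a score of 15.6.

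Of the 8 named genes with 2 HP1γ peaks, Gm31829 and Gm10069 had both on Adnp peaks. In Gm10069 on chromosome 6, near Pzp of the alpha-macroglobulin family, these Adnp peaks had scores of 54.3 and 32.0, and the third, with 8.31, lay 15.4 kb from the nearest HP1γ peak. D14Ertd670e (score 29.5) and Gm44140 (18.9) each had 1 HP1γ peak on the Adnp peak. Gm44140 lies 20.4 kb from Atf7ip, whose product is a partner of the H3K9 methyltransferase Setdb1. In Gm33377, Gm33222, Gm41048 and Gm41664 the 2 kinds lay at least 0.659 kb apart. In 4930533K18Rik and Gm15290, with 3 Adnp peaks and 1 HP1γ peak each, the nearest distances were 14 kb and 1.33 kb.

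**Figure D5:**
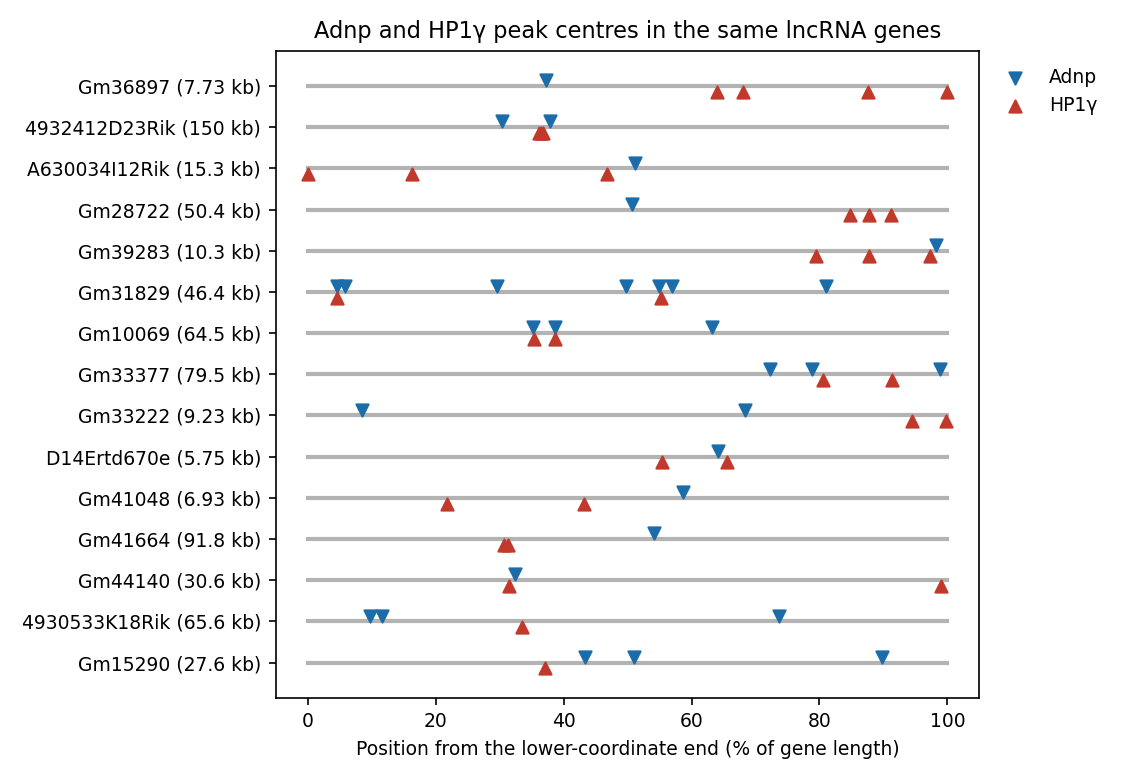
Centres of lncRNA-only Adnp peaks (blue, pointing down) and HP1γ peaks (red, pointing up) along 15 lncRNA genes that hold both, as % of gene length from the lower-coordinate end. In Gm10069 and Gm31829 each HP1γ peak sits on an Adnp peak, while in Gm36897 and Gm28722 the HP1γ peaks sit apart from it.

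Provisional names were carried by 777 of the 827 genes (94.0%), close to the 96.1% of all lncRNA genes, so few have a described role. Among 4 lists of known lncRNA genes, counts were read against the 6.71% of all lncRNA genes that hold a lncRNA-only peak. Pluripotency-associated transcripts, found through their effect on or expression in ES cells, had 18 genes in the table (of 34 listed), and 6 held a lncRNA-only peak (33.3%, 16.3% to 56.3%). The median length of the listed genes, 10.5 kb, lay between those of lncRNA genes with (16.1 kb) and without (7.96 kb) a lncRNA-only peak. In the third of the 4 length groups, into which 10.5 kb falls, 8.8% (7.85% to 9.85%) of lncRNA genes held one. The share of the list was not taken within length groups. The 6.71% also counts lncRNA genes that lie on or beside protein-coding genes. Platr29 held 3 peaks with scores of 27.8, 7.39 and 14.9, and Platr27, 1.74 kb long, held 2 with scores of 14.6 and 42.7. Single peaks lay in Platr6 (41.0), Platr22 (26.4), Panct2 (24.4) and Lncenc1 (16.7). None of the 18 genes held a HP1γ peak of the second list. The background was 1.34%, and 18 genes are too few to set them apart from it.

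Well studied lncRNA genes held a lncRNA-only peak in 7 of 24 cases (29.2%, 14.9% to 49.2%). The median length of the 24 was 8.48 kb, and the 7 ran from 7.83 kb (Bvht) to 131 kb (Morrbid). This share was not taken within length groups either, and the same limit on the 6.71% holds. Dleu2 had the highest score, 95.2. The others were Bvht (24.2), Morrbid (20.4), Sox2ot (13.4), Neat1 (12.6), Miat (10.8) and Carmn (9.61). Sox2ot surrounds the pluripotency gene Sox2, which lay 48.2 kb from its peak, and Neat1 is the scaffold of nuclear paraspeckles. Of small RNA host genes, 2 of 28 held one (7.14%, 1.98% to 22.6%), Snhg11 with a score of 213 and Snhg15 with 24.7. Of 8 imprinted lncRNA genes none did, a number too small to set apart from the background of 6.71% (interval up to 32.4%). An Adnp peak of any kind lay in 1 of the 8. The rule leaves out peaks on or less than 1 kb from protein-coding genes. How much of these 8 genes could hold a lncRNA-only peak was not measured. Among the 8, Kcnq1ot1 and Airn, which silence neighbouring genes on the paternal chromosome, held 1 and 2 HP1γ peaks.

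Dleu2 is the host of 2 microRNAs that limit the cell cycle. Its peak at chr14:61629507-61629977 lay 52.6 kb from the start, 1.9 kb from Mir16-1 and 2.05 kb from Mir15a. The mature microRNAs are printed because they show what the gene carries beside the peak, with the shared seed (bases 2 to 8) in capitals.
mmu-miR-16-5p: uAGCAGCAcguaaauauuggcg
mmu-miR-15a-5p: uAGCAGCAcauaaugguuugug
The peak did not overlap either of them. In Carmn the peak lay 0.205 kb from Mir145a and 0.695 kb from Mir143, which are known from smooth muscle. The share of all Adnp peaks on genes of other types was not taken, so what follows is a description only. Genes of other types were overlapped by 10 of the lncRNA-only peaks. Among them were 4 tRNA genes under 3 peaks, among them a peak with a score of 18.6 in Gm32298 on chromosome 13 over n-TLaag7 and n-TLaag5, the small nucleolar RNA gene Snord52 under a peak with a score of 33.5 in 1110038B12Rik, and 4 pseudogenes. A pair of peaks in Gm30275 on chromosome 14, with scores of 56.1 and 43.2, were the remaining ones and lay inside the T cell receptor loci Tcra and Tcrd.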

How the data were processed

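The 2 peak lists analysed here were deposited by the authors as BED files without header lines, each pooled over replicates. Start, end and, for Adnp, a score were used. The score is the authors' own as deposited, of a kind that is not stated, and it is 0 throughout the HP1γ list. HP1γ peaks carry names that mention the Adnp KO, and in which genotype each was seen is not known here. The tools named in the submitters' processing notes, with no roles, are MACS2, edgeR, STAR 2.5.0a, Bowtie 1.0.0 and bcl2fastq 1.17, and the build is mm10 (GRCm38). Settings of the peak caller were not found in these notes or in the labels.

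Positions are 1-based. Genes and types came from RefSeq on GRCm38.p6. On chromosomes 1 to 19, 12324 lncRNA and 20556 protein-coding genes starting at 3 Mb or later were used, which leaves out 328 genes of any type with lower positions. Exons were not analysed here. Strand came from the start windows. Overlap meant at least 1 bp. The regions and gene lists were chosen with earlier results of these data known. The genes named were up to 25 lncRNA genes with 3 or more lncRNA-only peaks, the 15 highest scores, up to 15 genes with both kinds of peak, listed genes with a peak and the 10 commonest neighbours. Other genes were named after their values were seen, such as those with a peak over the start. Shares have Wilson intervals and densities exact Poisson intervals, at 95%. Lists pooled over replicates allow no test. The assignment of peaks was tested on simulated data. Intervals were computed with SciPy 1.17.1 and tables with pandas 2.3.3 and NumPy 2.4.6 under Python 3.11.15, and figures were drawn with matplotlib 3.10.9.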

Additional observations from a re-analysis of the deposited data

How the results depend on the processing

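Of 27 alternative values, all from settings planned for the 7 quantities described, 18 stayed within the margin set for their kind of value (1.5 times for a count, the 95% interval for a share or median) and 9 did not. Within that margin for counts, a minimum distance of 10 kb to protein-coding genes gave 745 peaks in 575 genes, and 61 genes held a HP1γ peak inside or within 5 kb, against 48. The number of peaks fell from 1071 to 63 with genes of a provisional name left out and to 537 with only scores at or above the median of the list, where the number of genes was 460. The share within 1 kb of an end was 12.0% for 500 bp, 58.9% for 5 kb and 16.2%, still from the nearest edge, for peaks whose centre lay inside the gene. The share on HP1γ peaks was 6.72% for centres within 10 kb. The median distance to a protein-coding gene was 24.7 kb with a minimum of 5 kb and 32.6 kb with a minimum of 10 kb, which follows from the construction. With no minimum it was 18.9 kb. No paired analysis was possible because each list is pooled over replicates, and for the same reason no replicate could be left out. Depth behind the peaks is unknown, and counts of 5 or fewer windows or genes have wide intervals.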

Other observations

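In lncRNA start windows under Adnp peaks of other classes, the 23 under lncRNA-only peaks left out, CCCTCTTCTGG was present in 9 of 44 (20.5%, 95% Wilson interval 11.2% to 34.5%), against 0.813% of all lncRNA start windows. The word was chosen after the 23 windows had been read.

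The 59 Adnp peaks in lncRNA genes with a protein-coding gene less than 1 kb away were left out of the report by its distance rule. Their median score was 26.2 (95% interval 20.2 to 31.3), and 4 of them overlapped a HP1γ peak (6.78%, 2.67% to 16.2%), against 1.97% of all Adnp peaks on the same chromosomes.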
